A study of Mus musculus with 6 samples.

Results

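ExNeuron4 is 1 of the 12 classes into which the authors sorted nuclei that were taken from fixed and paraffin-embedded mouse brain (FFPE tissue) and sequenced in droplets. Its members are the nuclei that carry this name in the authors' annotation, 716 of 7031 nuclei (10.2%). They were set against the 4864 nuclei of the other 5 ExNeuron classes and the 1451 nuclei of the 6 non-neuronal classes. All droplet nuclei come from C57BL/6J mice aged 8 to 12 weeks and from tissue that the labels call cortex, cut as 50 µm scrolls. The labels give the same age, tissue and scroll thickness for the FFPE plate nuclei used below. Sex and the animal behind each nucleus are not stated in the labels. The protocol names mineral oil with heat, xylene with heat and xylene at room temperature as ways to remove the paraffin, without saying which one the droplet nuclei had. No group carries a treatment in the labels.

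Inhibitory neurons make GABA from glutamate with the decarboxylases encoded by Gad1 and Gad2, and load it into vesicles with the transporter encoded by Slc32a1. In the forebrain they fall into families marked by transcription factors such as Lhx6 and Sox6 on one side and by Adarb2 on the other, and by peptides such as somatostatin (Sst) and neuropeptide Y (Npy). Excitatory neurons instead load glutamate with the vesicular transporters Slc17a7 and Slc17a6. The prefix of the class name stands for excitatory in common usage, and the genes that mark inhibitory neurons are therefore the first check of the name.

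The droplet data are 1 sample and 1 library with 7031 distinct barcodes, so no comparison between classes has replicates and no p-value is given. Intervals are 95% and cover counting error only; the classes were clustered on the same genes that are compared here, so all differences between classes are descriptions. ExNeuron4 nuclei held a median of 371 UMIs (unique molecular identifiers, each counted as 1 RNA molecule), against 320 in the other ExNeuron classes and 326 in non-neuronal nuclei. The whole table ran from 235 to 998 UMIs per nucleus, and mitochondrial genes took 3.18% of the UMIs of ExNeuron4. Levels are UMIs summed over a class and scaled by its total (CPM), which for ExNeuron4 was 302435 UMIs. Fewer nuclei with a gene and less RNA per nucleus cannot be told apart in such sums.

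Of the genes for GABA synthesis, Gad2 was higher in ExNeuron4 than in each other ExNeuron class, which goes against a purely excitatory reading of the name. Slc17a6, a gene of excitatory neurons, was also highest in ExNeuron4, so these genes do not settle the name. Gad2 stood at 281 CPM (85 UMIs) in ExNeuron4. In the other ExNeuron classes it stood at 44.7 CPM in ExNeuron1, 130 in ExNeuron2, 71.8 in ExNeuron3, 67.5 in ExNeuron5 and 135 in ExNeuron6, and in the non-neuronal classes it ranged from 35.3 in endothelial to 137 in microglia nuclei. ExNeuron4 was thus the highest of the 12 classes for Gad2, 3.84-fold (2.89 to 5.09) above the other ExNeuron nuclei. Gad1 was different: ExNeuron6 led with 615 CPM, ahead of ExNeuron4 with 288 CPM, and the remaining ExNeuron classes ranged from 75.0 to 194 CPM. The pooled ratio for Gad1 was 2.04-fold (1.58 to 2.61), and it was under 2-fold in 4 of 6 alternatives: on the log2 scale 0.40 with equal weight for each other ExNeuron class, 0.99 after thinning, 0.97 without ExNeuron3 and 0.85 without the deepest nuclei. It stood at 1.03 with Malat1 and mitochondrial genes out of the total, and at 1.04 without called doublets, which removed no ExNeuron4 nucleus.

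Slc32a1 was also highest in ExNeuron4, at 76.0 CPM from 23 UMIs, 2.50-fold (1.47 to 4.15) above the other ExNeuron nuclei. The ratio for Slc32a1 was 0.93 on the log2 scale after thinning and 0.98 without the deepest nuclei, both under 2-fold, and it passed the filter through ExNeuron4, with 30.4 CPM in the pooled other ExNeuron nuclei. Abat, which breaks GABA down, was less than 2-fold different. Gad1, Gad2 and Slc32a1 were all 3 at least 2-fold higher with all nuclei, and Gad2 alone of them stayed so in each of the 6 alternatives, beside 3.68% higher and 1.66% lower among the 4507 genes that reached 50 CPM in ExNeuron4 or in the other ExNeuron nuclei.

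At this depth most ExNeuron4 nuclei showed none of these RNAs. A UMI of Gad1, Gad2 or Slc32a1 was found in 153 of 716 nuclei (21.4%, 18.4% to 24.6%), against 8.39% of the other ExNeuron nuclei and 7.17% of non-neuronal nuclei. Oligodendrocytes, which should lack these genes, had 5.03% at a median of 314 UMIs. ExNeuron6 had 25.8% (20.05% to 32.3%), an interval that overlaps that of ExNeuron4. After each nucleus was thinned to 250 UMIs, which left out 12 ExNeuron4 nuclei and 127 of the other ExNeuron nuclei, the shares were 13.6% (11.2% to 16.4%) in ExNeuron4, 6.00% in the other ExNeuron classes, 2.75% in oligodendrocytes and 15.5% in ExNeuron6. The share in ExNeuron4 lay above that in each class except ExNeuron6 at both depths, with intervals that did not overlap those of the other 4 ExNeuron classes, astrocytes, oligodendrocytes or OPC.

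**Figure D1:**
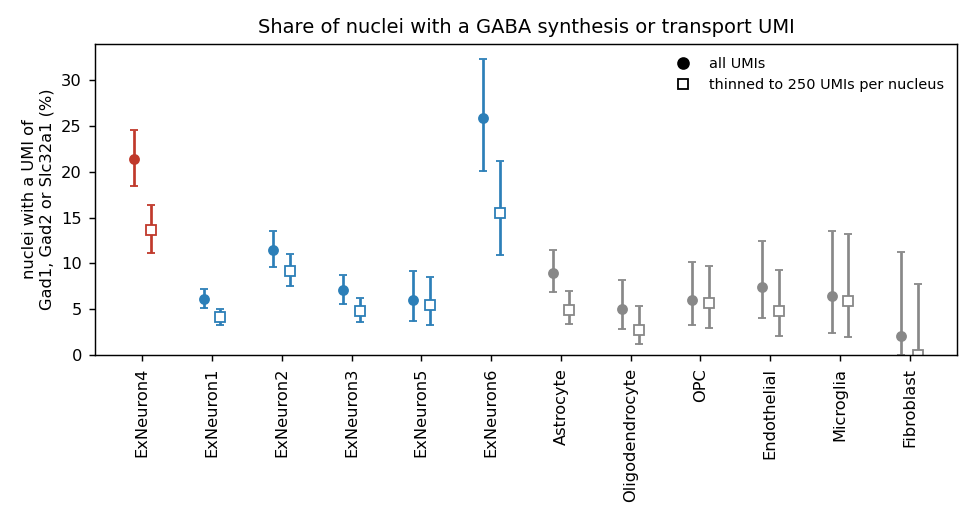
Percent of nuclei with at least 1 UMI of Gad1, Gad2 or Slc32a1 in each of the 12 droplet classes, with exact binomial 95% intervals; filled circles use all UMIs and open squares nuclei thinned to 250 UMIs. ExNeuron4 (21.4%, thinned 13.6%) and ExNeuron6 (25.8%, thinned 15.5%) had the highest shares.

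The other markers named for the class pointed the same way, with oligodendrocyte precursors (OPC) close behind or ahead. Erbb4, the neuregulin receptor of many interneurons, stood at 1901 CPM in ExNeuron4, from 382 to 874 CPM in the other ExNeuron classes and at 1659 CPM in OPC. Its ratio to the other ExNeuron nuclei was 3.65 (3.28 to 4.05). Nxph1, a secreted ligand of neurexins, stood at 757 CPM, from 109 to 382 CPM in the other ExNeuron classes and at 849 CPM in OPC, which exceeded ExNeuron4. At least 1 of Gad1, Gad2, Erbb4 and Nxph1 was found in 50.8% of ExNeuron4 nuclei, 25.7% of the other ExNeuron nuclei, 37.2% of oligodendrocytes and 54.0% of OPC. Among the other ExNeuron classes, ExNeuron6 had 44.0% (37.2% to 51.0%), so this set of 4 genes does not separate ExNeuron4 from OPC or from ExNeuron6.

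Across all genes, 166 of 4507 were at least 2-fold higher in ExNeuron4 than in the other ExNeuron classes and 75 at least 2-fold lower. The median difference over all tested genes was 0.02 on the log2 scale. Of the 166, 152 were above each of the other 5 ExNeuron classes, 75 were the highest of all 12 classes and 60 had a counting interval wholly beyond 2-fold. Of the 75 lower genes, 63 were below each of the other 5 ExNeuron classes, 17 were the lowest of the 12, and 0 had an interval wholly beyond 2-fold, so the lower genes are known less exactly than the higher ones. Of the 166 genes, 102 reached 50 CPM in ExNeuron4 and not in the other ExNeuron nuclei, and 53 of the 75 lower genes the other way round, so the filter favours such differences.

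**Figure D2:**
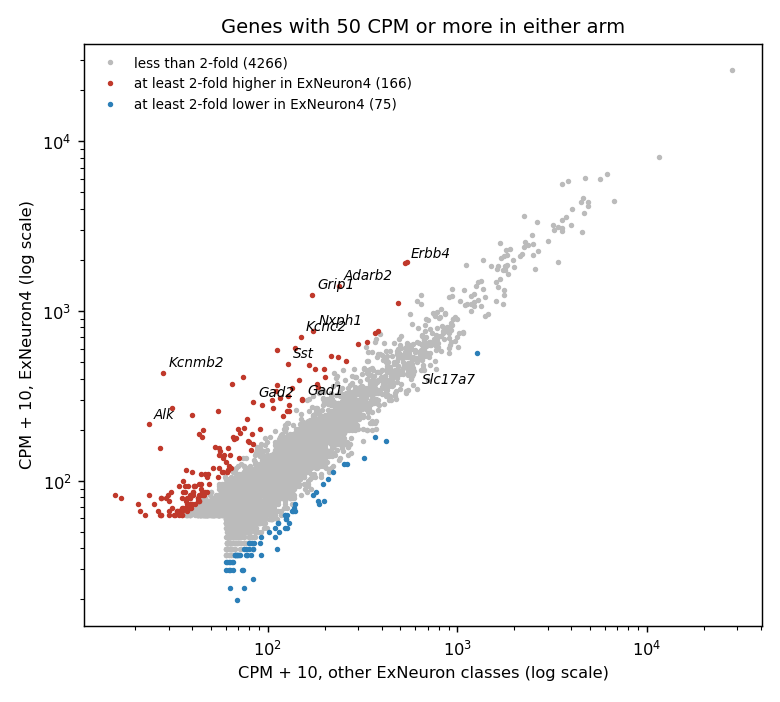
CPM plus 10 of each gene in ExNeuron4 against the other ExNeuron classes, both axes logarithmic, for the 4507 genes that reached 50 CPM on either side. Red points are the 166 genes at least 2-fold higher, Kcnmb2, Alk, Grip1 and Adarb2 among them, and blue points the 75 at least 2-fold lower, called from the ratio before 10 CPM were added for drawing; Slc17a7, with a ratio of 0.56, is grey.

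Kcnmb2, an auxiliary subunit of calcium-activated potassium channels, had the largest ratio among the genes that reached 50 CPM on either side. It stood at 423 CPM (128 UMIs) in ExNeuron4 and between 12.3 and 23.1 CPM in the other ExNeuron classes; no class outside ExNeuron4 exceeded 50.5 CPM. Its ratio was 23.5 (15.9 to 35.8), and 103 nuclei (14.4%) had a UMI, against 0.658% of the other ExNeuron nuclei. Kcnip1, a subunit of A-type potassium channels, stood at 360 CPM, with ExNeuron6 close behind at 308 CPM and the other 4 ExNeuron classes at 37.5 to 60.0 CPM. Kcnc2, which encodes a fast potassium channel of rapidly firing neurons, stood at 698 CPM against 82.5 to 197 CPM, a ratio of 5.02 (4.16 to 6.06). Of 17 potassium and related channel genes, 3 were at least 2-fold higher, these 3, and 0 lower, beside 3.68% and 1.66% of all tested genes; Kcnmb2 was under 50 CPM in the pooled other ExNeuron nuclei and passed the filter only through ExNeuron4.

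The 15 genes with the largest ratios ranged from 23.5-fold for Kcnmb2 to 5.39-fold for Igsf3. Beside those described one by one they were Alk, Eya4, Igf1 (insulin-like growth factor 1), Vwc2, Rbms3, Lypd6 and Ptprm. Alk stood at 205 CPM against 0 to 34.7 CPM in the other ExNeuron classes. Eya4, Igf1, Lypd6 and Igsf3 rest on 22, 21, 19 and 22 UMIs in ExNeuron4. Fibroblasts exceeded ExNeuron4 for Rbms3 and Igsf3, astrocytes for Lypd6 and endothelial nuclei for Ptprm. A UMI of at least 1 of the 15 was found in 68.7% (65.2% to 72.1%) of ExNeuron4 nuclei, 21.4% of the other ExNeuron nuclei (44.0% in ExNeuron6), 20.8% of oligodendrocytes and 55.3% of OPC. The 15 were chosen for their ratio in these same nuclei, and several passed the filter only through ExNeuron4. A larger share than in the other ExNeuron nuclei was therefore fixed beforehand, and nothing is read from it. The 5 genes with the most UMIs in ExNeuron4, Gm42418, Kcnip4, Dlgap1, Nrxn3 and Malat1, differed by less than 2-fold from the other ExNeuron nuclei; Kcnip4 had the lowest ratio of them, 0.70 (0.67 to 0.73).

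Most glutamate receptor genes differed by less than 2-fold, with 3 exceptions among the ionotropic ones. Grik1, a kainate receptor subunit, stood at 258 CPM in ExNeuron4 and at 5.13 to 75.0 CPM in the other ExNeuron classes, a ratio of 12.1 (8.09 to 18.3). Grin3a, an NMDA receptor subunit, was 5.58-fold (4.01 to 7.75) higher, although OPC were higher still with 405 CPM. Grin2c went the other way, at 46.3 CPM against 119 CPM, a ratio of 0.39 (0.21 to 0.67). Of 16 ionotropic glutamate receptor genes that passed the filter, 2 were higher and 1 lower, beside 3.68% and 1.66% of all tested genes. Both higher genes, at 21.4 CPM (Grik1) and 44.4 CPM (Grin3a) in the other ExNeuron nuclei, passed only through their level in ExNeuron4, so nothing is read from this count. Of 13 GABA-A receptor and scaffold genes 1 was higher and 0 lower, beside 3.68% and 1.66% of all tested genes, so nothing is read from this count. The higher gene was Gabrg3, at 632 CPM against 287 CPM. Leaving ExNeuron3 out of the comparison put Gabrg3 at 0.94 on the log2 scale, under 2-fold.

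Several genes of forebrain interneuron families were higher in ExNeuron4. Over the 25 such genes measured, filtered or not, the median was 1.60 on the log2 scale, beside 0.19 over all genes with no minimum CPM. Of the 25, 14 passed the filter, 9 of them higher and 0 lower, beside 3.68% and 1.66% of all tested genes. Among the 9, 2 (Sox6 and Grik1) were under 50 CPM in the pooled other ExNeuron nuclei. Grip1, a scaffold protein of glutamate receptors, stood at 1237 CPM, with 332 CPM in ExNeuron6 as the next ExNeuron class, and was found in 198 nuclei (27.7%) against 5.24% of the other ExNeuron nuclei. Adarb2 stood at 1402 CPM, with OPC at 1045 CPM, ExNeuron6 at 960 CPM and the other 4 ExNeuron classes at 136 to 234 CPM. Sox6 stood at 235 CPM, 7.87-fold (5.44 to 11.5) above the other ExNeuron nuclei, but below astrocytes (308 CPM) and OPC (575 CPM). Several transcription factors of the list did not pass the filter: Lhx6 had 11 UMIs, Dlx1 had 8 and Dlx5 had 6.

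Grip1 and Adarb2 thus stood far above most other neurons while Adarb2 was shared with ExNeuron6 and OPC. With every other ExNeuron class given the same weight, Grip1 stood at 2.67 and Adarb2 at 2.05 on the log2 scale, still more than 2-fold. Among 15 genes that mark interneuron subclasses, 9 passed the filter, 2 were higher and 0 lower, beside 3.68% and 1.66% of all tested genes. Sst stood at 479 CPM against 103 to 141 CPM in the other ExNeuron classes, a ratio of 4.08 (3.28 to 5.06). Npy stood at 308 CPM, with ExNeuron6 at 246 CPM and microglia at 307 CPM, a ratio of 2.60 (2.02 to 3.34). The subclass genes Pvalb, Reln, Calb1, Calb2, Cck, Lamp5 and Nos1 differed by less than 2-fold, and Vip (13 UMIs) was under the filter.

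Some genes of cerebellar inhibitory interneurons were also higher, although the labels name cortex. The median over the 15 measured, filtered or not, was 1.40 on the log2 scale, beside 0.19 over all genes with no minimum CPM, and 9 passed the filter. Of these, 7 were higher and 0 lower, beside 3.68% and 1.66% of all tested genes. However, 4 of the 7 (Lypd6, Klhl1, Kit and Lgi2) were under 50 CPM in the pooled other ExNeuron nuclei and so had to be higher in ExNeuron4 to be counted. Klhl1 was under 2-fold, at 0.998 on the log2 scale, with equal weight for each other ExNeuron class. Of the 7, Nxph1, Sst and Lypd6 also sit elsewhere in the forebrain lists or among the leading genes. Sorcs3, a sorting receptor, stood at 344 CPM against 61.5 to 166 CPM in the other ExNeuron classes and 314 CPM in OPC. Kit, a receptor of stellate and basket cells, stood at 86.0 CPM against 24.6 to 46.3 CPM, with 353 CPM in fibroblasts and 85.4 CPM in astrocytes. Of 10 striatal spiny neuron genes, 1 was higher and 1 lower (Ppp1r1b), beside 3.68% and 1.66% of all tested genes. The higher gene, Rarb, stood at 52.9 CPM against 17.4 CPM and passed only through ExNeuron4. Of 7 Purkinje cell genes 0 were higher and 0 lower, beside the same shares of all tested genes.

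**Figure D3:**
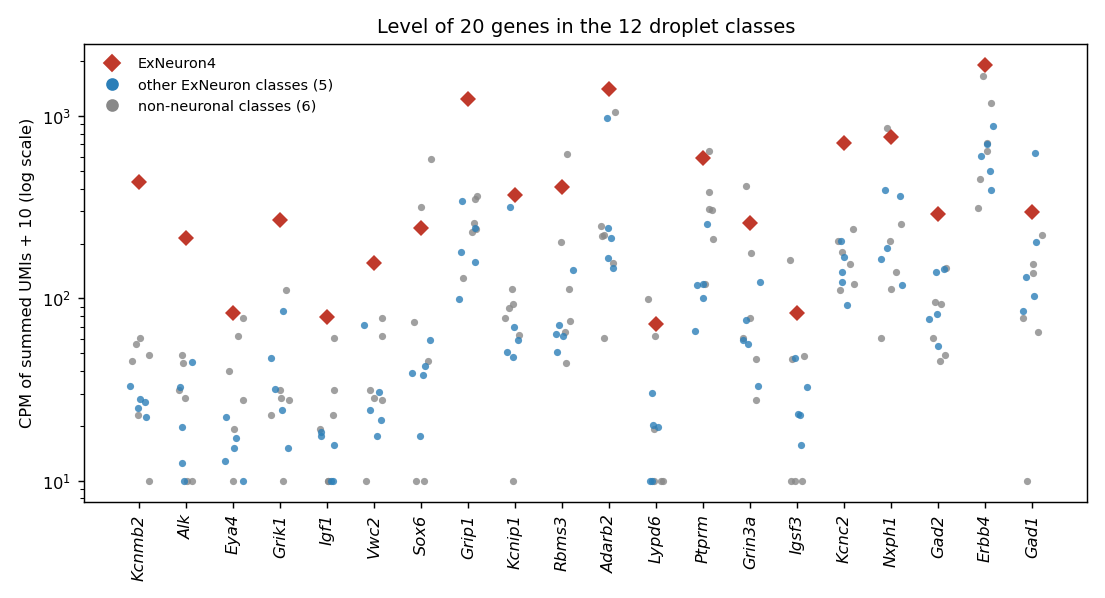
CPM plus 10 of 20 genes on a logarithmic axis in ExNeuron4 (diamonds), the other 5 ExNeuron classes and the 6 non-neuronal classes (circles, spread sideways for sight only). ExNeuron4 was the highest class for Kcnmb2, Alk, Grik1, Grip1 and Gad2, and ExNeuron6 for Gad1.

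Most excitatory genes differed by less than 2-fold from the other ExNeuron nuclei. Slc17a7 stood at 337 CPM, the lowest of the 12 classes, against 439 to 729 CPM in the other ExNeuron classes; oligodendrocytes, which should lack it, had 386 CPM. The ratio of 0.56 (0.45 to 0.69) to the other ExNeuron nuclei was short of 2-fold. Slc17a6 went the other way and was highest in ExNeuron4, at 109 CPM against 28.2 to 90.0 CPM in the other ExNeuron classes. Of 15 cortical and hippocampal glutamatergic genes, 12 were called neither way, 1 was higher (Slc17a6, which passed only through ExNeuron4) and 2 were lower, beside 3.68% and 1.66% of all tested genes. The lower genes were Sv2b, a synaptic vesicle protein (162 against 411 CPM), and Hs3st4 (126 against 311 CPM). The list median was −0.67 on the log2 scale. Hs3st4 stood at −0.88 after thinning, short of 2-fold, and ExNeuron3 was lower than ExNeuron4 for it, with 113 CPM.

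The 11 genes of cerebellar granule neurons that passed the filter had a median of −0.58 on the log2 scale. Of them 1 was at least 2-fold lower (1.66% of all tested genes), Fat2, at 92.6 CPM against 97.5 to 372 CPM. Without ExNeuron3 in the comparison Fat2 stood at −0.67 on the log2 scale, and with equal weight for each class at −0.998, both short of 2-fold. The 10 lowest genes of the whole comparison were counted from 3 to 20 UMIs in ExNeuron4. Ppp1r1b, the dopamine-regulated phosphatase inhibitor of spiny neurons, was the lowest of the 12 classes at 29.8 CPM (9 UMIs), against 53.9 to 220 CPM in the other ExNeuron classes. St6galnac3, a sialyltransferase, stood at 62.8 CPM against 120 to 541 CPM.

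Against non-neuronal nuclei, 220 of 4811 genes were at least 2-fold higher (4.57%) and 383 at least 2-fold lower (7.96%), with a median of −0.02 on the log2 scale over all tested genes. The highest were again Kcnmb2 (15.9-fold, 9.12 to 29.9), Grik1 (12.3-fold, 6.52 to 25.7) and Alk, a receptor tyrosine kinase (9.79-fold, 5.11 to 20.6). Galntl6, a glycosyltransferase gene, stood at 1941 CPM against 356 CPM in non-neuronal nuclei, with ExNeuron6 at 1354 CPM. Genes of glia were mostly lower: 8 of 9 astrocyte genes and 8 of 9 oligodendrocyte genes were at least 2-fold below non-neuronal nuclei.

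Glial RNA was still counted in ExNeuron4. Astrocyte markers summed to 1885 CPM against 2062 to 2449 CPM in the other ExNeuron classes, and oligodendrocyte markers to 1607 CPM against 1912 to 2338 CPM, with no defining marker of either list at 0. OPC markers summed to 913 CPM against 521 to 781 CPM, with Cspg4 and Gpr17 at 0 and Pdgfra at 2 UMIs. Lhfpl3, on the OPC list, was 2.09-fold (1.62 to 2.68) higher than in the other ExNeuron nuclei, but under 2-fold in 3 of 6 alternatives, at 0.97 on the log2 scale with equal weight for each class, 0.95 after thinning and 0.96 without ExNeuron3. The part of RNA from other cells in the differences was not tested.

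The 166 higher genes were long: their median gene body was 152 kb, against 58.9 kb over tested genes and 49.0 kb in the 75 lower genes, and 63.6% of them, against 33.6%, spanned at least 100 kb. In GENCODE M21 on GRCm38, Kcnmb2 spans 31902507 to 32200180 on chromosome 3, Grik1 87895900 to 88290265 on chromosome 16, Grip1 119453830 to 120087261 on chromosome 10, Gad1 70553072 to 70602014 on chromosome 2 and Gad2 22622205 to 22693874 on chromosome 2. All 5 are annotated as protein-coding genes.

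The nuclei of ExNeuron4 were not alike. Clustering the 716 nuclei alone gave 6 sub-clusters of 249, 142, 138, 93, 57 and 37 nuclei, here called 1 to 6; their defining genes are descriptions. Sub-clusters 1, 2 and 3 kept an overlap (shared nuclei over the union) of at least 0.458, 0.479 and 0.423 with their best match under 6 other settings. Sub-cluster 4 fell to 0.277 (median 0.377), and 5 and 6 fell to 0.110 and 0.0807. All 6 thus depend on the settings, and sub-clusters 4, 5 and 6 the most. The number of sub-clusters ranged from 3 to 13.

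Sub-cluster 2 was the highest for Erbb4, Nxph1 and Kcnc2, and other markers peaked elsewhere. Erbb4 stood at 4592 CPM there and at 881 to 1519 CPM in the other 5; Nxph1 stood at 1914 CPM against 245 to 676 CPM, and Kcnc2 at 1901 CPM against 143 to 608 CPM. It also led in Sox6 (583 CPM) and Lhx6 (8 of 11 UMIs in the class), and it held 72 of the 145 Sst UMIs. Gad2 peaked in sub-cluster 5 (636 against 277 CPM in sub-cluster 2), as did Gad1 by a small margin (440 against 416 CPM), while Sst (1960 against 999 CPM), Npy (1825 against 375 CPM) and Slc32a1 (203 against 194 CPM) peaked in sub-cluster 6, the last on 3 UMIs. The nuclei of sub-cluster 2 were deeper than the class (median 486 UMIs), and 33.1% (25.4% to 41.5%) had a UMI of Gad1, Gad2 or Slc32a1.

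Sub-cluster 4 was led by Sorcs3 (1400 CPM), Penk, Kit, Ptprk and Grm8, and had the highest Adarb2, at 4438 CPM against 338 to 1720 CPM elsewhere in the class. It had 23.7% of nuclei with a GABA gene UMI and the lowest Slc17a7, at 166 CPM. Sub-cluster 3 was led by Lef1, Rmst and Zfhx3 and held 20 of the 33 Slc17a6 UMIs; 17.4% of its nuclei had a GABA gene UMI and 23.2% an Slc17a7 or Slc17a6 UMI.

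Sub-cluster 1, the largest, had the smallest share of nuclei with a GABA gene UMI. Cadps2, Camk4 and Meis1 were among its leading genes, at 1086, 1372 and 263 CPM; it held 19 of the 31 UMIs of Cbln3, a granule neuron gene, and its Slc17a7 level of 525 CPM lay within the range of the other ExNeuron classes. In it 14.5% (10.3% to 19.4%) of nuclei had a GABA gene UMI and 19.3% an Slc17a7 or Slc17a6 UMI. Grip1 stood at 322 CPM there against 2358 CPM in sub-cluster 2. Its median depth was 318 UMIs, the lowest of the 6. Sub-cluster 6, with 37 nuclei, was led by Npy (27 UMIs) and Sst (29 UMIs).

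**Figure D4:**
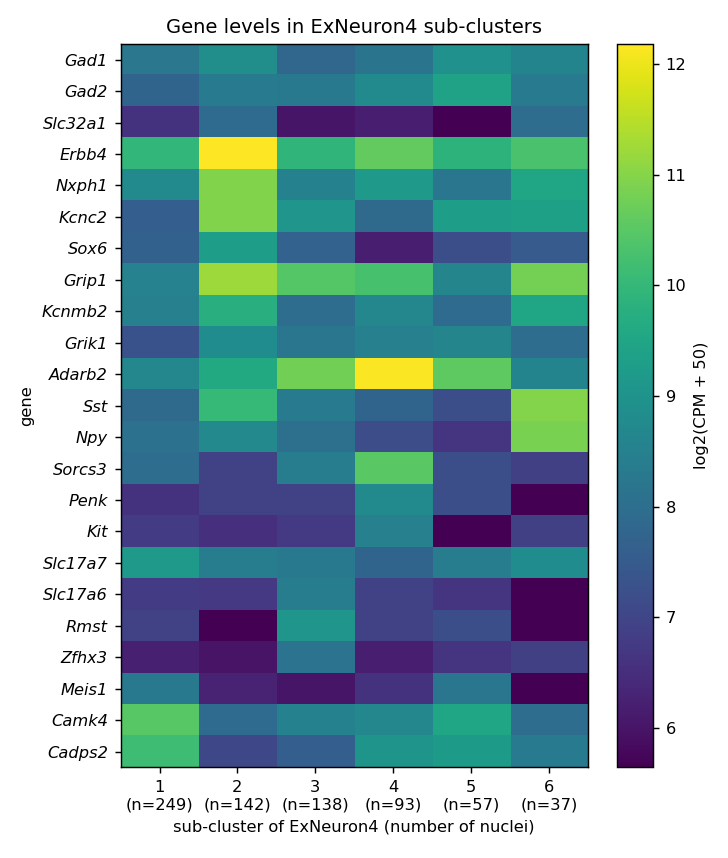
Level of 23 genes, as log2 of CPM plus 50, in the 6 sub-clusters of ExNeuron4, to be read along a row, since levels of different genes are not comparable. Erbb4, Nxph1 and Kcnc2 peak in sub-cluster 2, Adarb2 and Sorcs3 in sub-cluster 4, and Slc17a7 in sub-cluster 1.

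Within single nuclei, Adarb2 and Sox6 were rarely found together. Of 122 nuclei with an Adarb2 UMI, 1 had a Sox6 UMI (0.820%, 0.0207% to 4.48%), against 60 of 594 nuclei without Adarb2 (10.1%, 7.80% to 12.8%), although the first group was deeper (median 450 against 359 UMIs). After thinning it was 0 of 96, with an upper bound of 3.77%, against 39 of 608 (6.41%). Sorcs3 was found in 26.2% of nuclei with Adarb2 and 6.23% of those without. Npy was found in 24.0% of the 75 nuclei with Sst and in 6.40% of those without, and after thinning in 11 of 55 and 29 of 649.

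A GABA gene and a vesicular glutamate transporter were found together in 23 of 153 nuclei with a GABA gene UMI, against 100 of 563 nuclei without. Their intervals, 9.77% to 21.7% and 14.7% to 21.2%, overlap. In 185 of 716 nuclei (25.8%) no UMI of Gad1, Gad2, Slc32a1 or the 15 leading genes was found, against 72.5% of the other ExNeuron nuclei and 94 of 209 nuclei of ExNeuron6. Because the 15 genes were chosen for being higher in ExNeuron4 in these nuclei, a smaller share there was fixed beforehand. The difference from the other ExNeuron nuclei is not read as a result.

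Plate nuclei sequenced with SMART-Seq2, a full-length method with far more counts per nucleus, gave a look at the leading genes in nuclei that the class did not use. These nuclei have no class names, so they were split by whether Gad1 and Gad2 or Slc17a7 and Slc17a6 had more counts, and thinned to 10000 counts each; the split was chosen after a first split by any Gad count had followed depth. This gave 33 and 10 nuclei in FFPE batch 1, 35 and 38 in FFPE batch 2, and 55 and 41 in frozen nuclei, which the labels list under no sample. Nuclei of 1 batch are not replicates, and counts of Gad1 and Gad2 themselves set the split.

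Of the 15 leading genes, 7 were found in at least 5 nuclei in batch 1, and 6 of them in a larger share of nuclei where Gad1 and Gad2 led, against 55.7% of all genes so tested. In batch 2 it was again 6 of 7, against 67.2%, and in frozen nuclei 12 of 14, against 35.7%. A share at least 2 times as high was seen for 4 of 7, 4 of 7 and 3 of 14 of them, against 28.7%, 32.2% and 8.79% of all genes so tested. Adarb2 was found in 21 of 33 against 1 of 10 nuclei in batch 1, in 19 of 35 against 7 of 38 in batch 2, and in 28 of 55 against 12 of 41 in frozen nuclei. Grip1 was found in 51.4% (34.0% to 68.6%) against 23.7% (11.4% to 40.2%) in batch 2 and in 80.0% against 63.4% in frozen nuclei. Markers outside the 15 went both ways. Nxph1 was found in 6 of 33 against 1 of 10 nuclei in batch 1, in 7 of 35 against 2 of 38 in batch 2 and in 24 of 55 against 3 of 41 in frozen nuclei. Erbb4 was found in 17 of 33 against 7 of 10, in 19 of 35 against 17 of 38 and in 33 of 55 against 19 of 41. Sst was found in 7 of 35 against 1 of 38 in batch 2 and in 17 of 55 against 15 of 41 in frozen nuclei. Npy was found in 1 of 35 against 4 of 38 and in 24 of 55 against 19 of 41, and Slc32a1, in under 5 nuclei of either FFPE batch, in 8 of 55 against 7 of 41 frozen nuclei.

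Exceptions were Kcnmb2 in batch 1 (4 of 33 against 2 of 10) and Kcnip1 in batch 2 (27 of 35 against 32 of 38). In frozen nuclei they were Vwc2 (3 of 55 against 3 of 41) and Grin3a (8 of 55 against 8 of 41). Of the 10 lowest genes, 2 of 3 tested in batch 1, 4 of 5 in batch 2 and 2 of 10 in frozen nuclei were found more often where Gad1 and Gad2 led, against 55.7%, 67.2% and 35.7% of all genes so tested, so nothing is read from these counts. Thinned nuclei where Gad1 and Gad2 led had more genes in batch 2 (median 1167 against 958) and fewer in frozen nuclei (2034 against 2798), and the part of this in the counts was not tested.

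**Figure D5:**
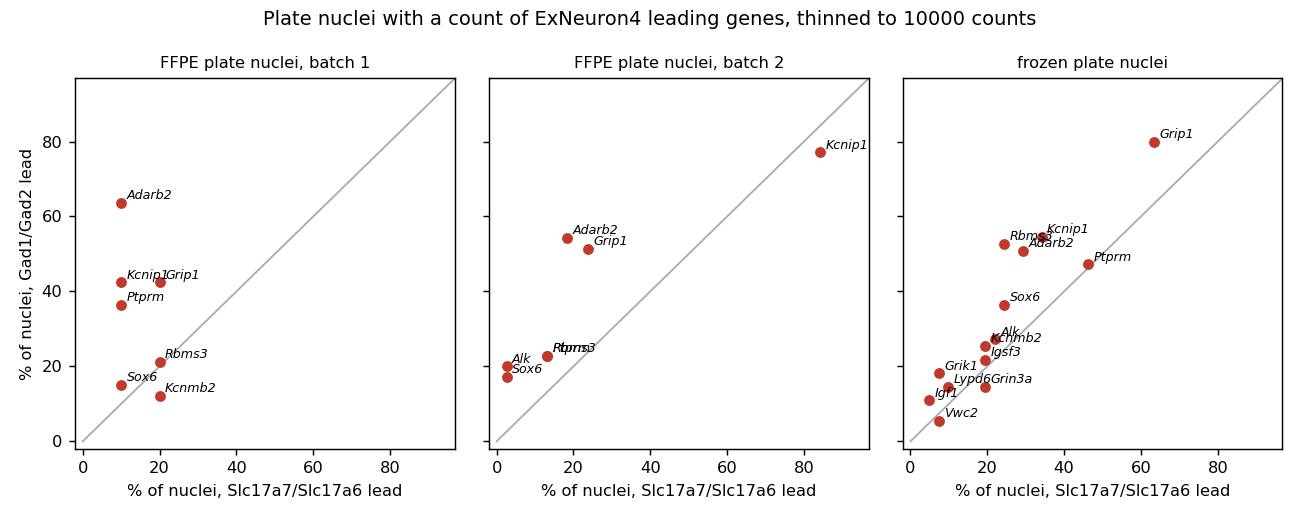
Percent of plate nuclei with a count of each tested leading gene, where Slc17a7 and Slc17a6 counts lead (horizontal axis) and where Gad1 and Gad2 counts lead (vertical axis), after thinning to 10000 counts, in 3 panels of nuclei; the line marks equal shares. 6 of 7, 6 of 7 and 12 of 14 genes lie above the line.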

How the data were processed

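Droplet values are UMI counts per gene and nucleus as deposited, with mm10_premrna as the reference per the file headers; in 131 nuclei the table sums to 1 UMI less than the authors' total. The deposited annotation gives class names and the fraction of mitochondrial UMIs per nucleus. The deposited plate tables hold raw counts; per the submitters' processing notes the builds are mm10 and hg19. The aligner, the counter and the settings behind the classes: not given in the sources used here. Of the whole-series table, 143 columns of FFPE nuclei were not used, since these plates were read from the batch 2 table.

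UMIs were summed per class and scaled to CPM. Genes that reached 50 CPM on either side were compared, and at least 2-fold (0.5 UMI added to each arm) was called higher or lower. Named genes were the 15 highest and 10 lowest against the other ExNeuron classes, the 10 highest against non-neuronal nuclei (at least 10 UMIs in the higher arm), the 5 largest shares and the genes of fixed lists. Some genes under this rule are not reported here. Ratio intervals are exact conditional and shares exact Clopper-Pearson intervals, 95%, counting error only. Members and lists were chosen with earlier results of these data known. Sub-clusters used scanpy 1.11.5 (1000 variable genes, 15 principal components, 15 neighbours, Leiden resolution 0.8). The doublet caller Scrublet marked 4 of 7031 nuclei (0.0569%), too few to have worked, so doublets were in effect not removed. The ratio, interval and thinning steps were tested on simulated data. Python 3.11.15, numpy 2.4.6, pandas 2.3.3 and scipy 1.17.1 were used. Alternatives were another weighting, thinning, no filter, another comparison group, another total and leaving out doublets or deep nuclei.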

Additional observations from a re-analysis of the deposited data

How the results depend on the processing

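Without a minimum CPM, 2131 genes were at least 2-fold higher and 1124 lower against the other ExNeuron classes, and 1855 and 2335 against non-neuronal nuclei, since genes with few UMIs then entered. Thinning to 250 UMIs per nucleus gave 123 lower genes in place of 75 and shared 46 of them; the cause was not tested. It also lowered the share of ExNeuron4 nuclei with a UMI of Gad1, Gad2 or Slc32a1 to 13.6%. The number of sub-clusters was 3 at resolution 0.5 and 13 at resolution 1.2. The other counts stayed within 1.5 times of the reported ones. Of 204 named genes past the filter, 0 called genes changed direction under 6 alternatives, and 38 of 1224 log2 ratios left their counting interval. In at least 1 of them 10 called genes came under 2-fold: Synpr, Cacna1g and Tle2, and the 7 that the report gives with those values (Gad1, Slc32a1, Gabrg3, Hs3st4, Fat2, Lhfpl3 and Klhl1). Leaving out the 5% of nuclei with the most UMIs (351 nuclei, 67 of ExNeuron4) and the other sub-cluster settings were chosen after seeing the data. No called doublet lay in ExNeuron4, so that alternative says nothing about doublets. No paired analysis was possible because the droplet nuclei are 1 sample and no test was made.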
